A study of Mus musculus with 13 samples.

Results

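The enzymes that add and remove acetyl and methyl groups on histones were followed at the RNA level in mouse macrophages with and without HDAC3. The set holds 47 listed genes in 5 classes: 8 acetyltransferases and coactivators, 7 sirtuins, 12 demethylases, 16 methyltransferases with their core partners, and 4 readers and scaffolds. Genes were chosen by name, including the older names that the arrays use (such as Jmjd3 for Kdm6b), and all 47 had at least 1 probe. Of these, 45 passed the filter on dim probes and were tested among 20888 genes.

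Cells were bone marrow-derived macrophages from male C57BL/6 mice aged 12 to 16 weeks, grown for 6 days in 30% L929-conditioned medium. Control cells carried Hdac3 with exons 4 to 7 between loxP sites and had no Cre. KO cells carried the same floxed gene and Cre recombinase driven by the lysozyme M promoter, so presence of Cre and loss of HDAC3 go together. For 24 hours, cells of each genotype were given IL-4 at 10 ng/mL, a cytokine of alternative activation, or its vehicle, which was albumin (BSA) at 0.1%. There were 4 control vehicle arrays and 3 each of KO vehicle, control IL-4 and KO IL-4, on 4 slides.

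Acetyltransferases such as p300 and CBP place acetyl groups on histone tails, which are found at active promoters and enhancers, and deacetylases such as HDAC3 and the NAD-dependent sirtuins take them off. Histone methyltransferases mark lysines or arginines with methyl groups that can accompany either active or silent chromatin, and demethylases reverse many of these marks. In macrophages several of these enzymes are studied as regulators of inflammatory and IL-4-induced genes, with the demethylase Kdm6b among the best known.

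Hdac3 served as a check of the labels. Its log2 level, relative to the array's 75th percentile, ran from -2.18 to -1.70 on control vehicle arrays and from -3.67 to -3.12 on KO vehicle arrays. Under IL-4 it ran from -2.28 to -1.80 in control and from -4.02 to -3.16 in KO cells. The groups did not overlap, and the log2 fold change was -1.41 in vehicle (limma adjusted p = 0.00295) and -1.52 under IL-4 (limma adjusted p = 0.00397). On 1 KO IL-4 array the Hdac3 probe was not well above background. Whether the Hdac3 probe lies within the floxed exons was not determined here. All 12 macrophage markers on the list passed the filter, and several of them differed between groups. With HDAC3 loss 3 were called higher and 1 lower in each treatment, among them Itgam (1.44 in vehicle and 1.85 under IL-4) and Fcgr1 (-0.68 and -0.67). These are 25% and 8.33% of the 12, beside 2.42% and 2.25% of all genes in vehicle and 2.03% and 1.6% under IL-4. With IL-4 in control cells 1 was called higher and 5 lower, among them Cd14 (-2.16) and Lyz2 (-0.41, limma adjusted p = 0.0119). That is 8.33% and 41.7% of the 12, beside 2.76% and 2.88% of all genes. The log2 level of Lyz2 was between 7.19 and 7.77 on every array.

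Setd8, also named Kmt5a, and Sirt3 were the members called at an adjusted p under 0.05, both higher in KO cells. Setd8 encodes the enzyme that adds a single methyl group to a lysine of histone H4, and Sirt3 encodes a deacetylase found mainly in mitochondria. Because the Setd8 call depended on the probe, the first 30 bases of the probes behind both genes are given 5′ to 3′ in lower case, with mm9 positions. The Setd8 probes start at positions 334, 1327 and 2304 of the transcript, and no base is singled out in capitals.
Setd8 probe at transcript position 334, chr5:124897355-124900704, plus strand, with its 60 bases mapped across a gap: gctggaatctacaggaagcgagaagagaaa
Setd8 probe at transcript position 1327, chr5:124910906-124910965, plus strand: ctgttacaggtttccaaggtggacttgaac
Setd8 probe at transcript position 2304, chr5:124911883-124911942, plus strand: actagggtacctggcagccggcagagaacc
Sirt3 probe at transcript position 1365, chr7:148049605-148049664, minus strand: caggcgatgcactagggcaatctagcatgt

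On the brightest Setd8 probe, at transcript position 2304, the control vehicle arrays read 2.85, 2.60, 2.88 and 2.73 on the log2 scale. The KO vehicle arrays read 3.49, 3.41 and 3.13. Every KO vehicle array lay above every control vehicle array. The log2 fold change was 0.58 ± 0.125 (SE), or 1.49-fold, with an adjusted p of 0.0213 in limma. Within slides 1, 2 and 3 the difference was 0.65, 0.81 and 0.25, higher in KO on each.

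Under IL-4 the control arrays read 3.17, 2.92 and 3.20 for Setd8 and the KO arrays 3.73, 3.90 and 3.58. The groups again did not overlap. The log2 fold change was 0.63 ± 0.134 (SE), or 1.55-fold (limma adjusted p = 0.0223), and 0.55 and 0.97 within slides 1 and 2. IL-4 itself moved Setd8 by 0.33 in control cells (limma adjusted p = 0.203) and by 0.39 in KO cells (limma adjusted p = 0.22), neither of which was called. The genotype difference in the IL-4 response of Setd8 was 0.05, with a 95% interval of -0.35 to 0.45.

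The other Setd8 probes had smaller differences in the same direction. In vehicle they were 0.28 ± 0.231 (SE) for the probe at position 334 and 0.23 ± 0.132 (SE) for the probe at position 1327. Under IL-4 they were 0.18 ± 0.247 and 0.19 ± 0.141 (SE). None of these was called, so the Setd8 call rests on 1 of 3 probes, and with the mean over probes the adjusted p was 0.23 in vehicle and 0.309 under IL-4 (limma). The vehicle call was also lost with median scaling (adjusted p = 0.145), with slide as a fixed block (0.0514), and without control vehicle array 2 (0.0626) or 4 (0.0583) or KO vehicle array 5 (0.124) or 6 (0.108). The IL-4 call was lost with median scaling (adjusted p = 0.104), slide as a fixed block (0.0552), only the groups compared (0.182), and without control IL-4 array 10 (0.0972) or 12 (0.0506) or KO IL-4 array 13 (0.0553) or 14 (0.0828).

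Sirt3 read -0.67, -1.02, -0.96 and -0.88 on the control vehicle arrays and -0.39, -0.57 and -0.78 on the KO vehicle arrays. These groups overlapped, and the log2 fold change of 0.30 ± 0.121 (SE) was not called (limma adjusted p = 0.277). Under IL-4 the control arrays read -1.08, -1.08 and -1.08 and the KO arrays -0.53, -0.30 and -0.60. The KO arrays were all above the control arrays, with a log2 fold change of 0.60 ± 0.129 (SE), or 1.52-fold (limma adjusted p = 0.0246). The difference was 0.55 and 0.78 within slides 1 and 2.

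Sirt3 had 1 kept probe, so no second probe bears on its call. The call was lost with median scaling (limma adjusted p = 0.111), without a filter on dim probes (0.0524) and with only the groups compared (0.161). It was also lost without control IL-4 array 9 (0.0674), 10 (0.0814) or 12 (0.0834) or KO IL-4 array 14 (0.0873). The difference between its 2 genotype effects was 0.30 (95% interval -0.09 to 0.69) and was not called, so the effect under IL-4 is not shown to differ from that in vehicle.

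**Figure D1:**
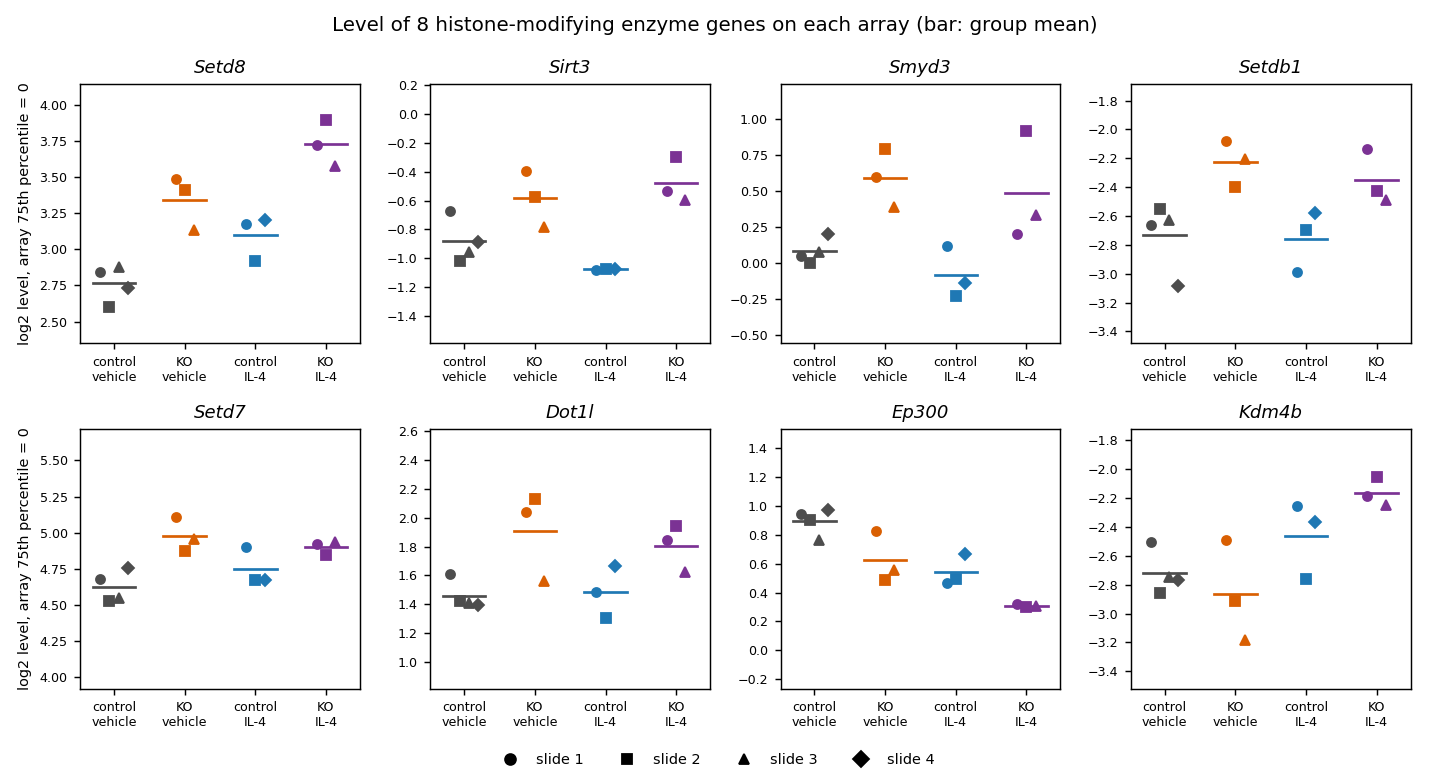
Log2 level of 8 members on each of 13 arrays (y axis, array 75th percentile at 0; each panel has its own range of equal height), by genotype and treatment; points are arrays, shapes are slides and bars are group means. KO arrays lie above control arrays for Setd8, Smyd3 and Setdb1 in both treatments, for Setd7 in vehicle and for Sirt3 and Kdm4b under IL-4. KO arrays lie below control arrays for Ep300 under IL-4, while the groups of Dot1l overlap. Groups do not overlap for 16.9% of all genes in vehicle and 17.8% under IL-4.

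With HDAC3 loss in vehicle, 1 of 45 tested members was called higher and 0 lower, against 2.42% and 2.25% of all genes. At an unadjusted p under 0.05 there were 11 members, where the share of all genes was 13.6%. Groups did not overlap for 7 members that were higher and 4 that were lower, against 16.9% of all genes in either direction. The median log2 fold change of the members was -0.02 and that of all genes was 0.02. Under IL-4, 2 members were called higher and 0 lower, against 2.03% and 1.6% of all genes, and 6 members had an unadjusted p under 0.05 against 14.9%. Groups did not overlap for 7 higher and 3 lower members there, against 17.8%.

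Several of the larger differences with HDAC3 loss were in methyltransferases. Apart from Setd8, none of the 16 passed the test, and their log2 fold changes ran from -0.28 to 0.58 in vehicle and from -0.38 to 0.63 under IL-4. Smyd3, a SET and MYND domain methyltransferase, read 0.05, 0.00, 0.07 and 0.20 on control vehicle arrays and 0.60, 0.79 and 0.39 on KO vehicle arrays. Its log2 fold change was 0.51 in vehicle (limma adjusted p = 0.141) and 0.57 under IL-4 (limma adjusted p = 0.133), and within slides 1 and 2 under IL-4 it was 0.09 and 1.15.

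Setdb1, which places a silencing methyl mark on histone H3, differed by 0.50 in vehicle (limma adjusted p = 0.115) and by 0.40 under IL-4 (limma adjusted p = 0.276). Its KO arrays lay above the control arrays in both treatments, and 1 of the 4 control vehicle arrays read its probe as not well above background. Dot1l, the methyltransferase that acts on the globular part of histone H3, differed by 0.45 (limma adjusted p = 0.143) and 0.32 (limma adjusted p = 0.385), with overlapping groups in vehicle. The other kept Dot1l probe gave 0.07 in vehicle and -0.02 under IL-4. Nsd1 differed by 0.21 in vehicle and 0.37 under IL-4 (limma adjusted p = 0.187 for the latter). Its other kept probes gave 0.03 and -0.01 in vehicle and 0.05 and 0.45 under IL-4.

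Setd7, a lysine methyltransferase with histone and other substrates, showed how far a value could depend on the probe. On its brightest probe the control vehicle arrays read 4.68, 4.53, 4.54 and 4.75 and the KO vehicle arrays 5.11, 4.88 and 4.95. These groups did not overlap, with a log2 fold change of 0.35 (limma adjusted p = 0.0757). The other kept probes gave 0.33 and -0.28, and neither was called. Under IL-4 the 3 probes gave 0.15, 0.10 and -0.35.

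The Polycomb repressive complex, in which Ezh1 or Ezh2 is the enzyme and Eed and Suz12 are core partners, held no called member. In vehicle, the differences were 0.05 for Ezh1, -0.05 for Ezh2, -0.17 for Eed and -0.10 for Suz12. Under IL-4 Ezh2 had the lowest value of the class, -0.38 (limma adjusted p = 0.391), on a dim probe. That probe passed the filter through the control IL-4 arrays alone, the group where its mean was highest, so the filter itself favoured a lower value in KO cells. The remaining methyltransferases, namely Setd2, Suv39h1, Ehmt1, Ehmt2, Prmt1 and Carm1, lay between -0.28 (Prmt1, an arginine methyltransferase) and 0.13 (Ehmt1) in vehicle.

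None of the 8 acetyltransferases and coactivators was called with HDAC3 loss. Their log2 fold changes ran from -0.31 to 0.25 in vehicle, with Ncoa1, a nuclear receptor coactivator, lowest at -0.31 (limma adjusted p = 0.191), and from -0.23 to 0.39 under IL-4. The value of 0.39 belongs to Kat2a, whose probe was well above background on all 3 control IL-4 arrays and on 2 of the KO IL-4 arrays, and whose limma adjusted p was 0.725. Crebbp, Kat2b, Ncoa2 and Ncoa3 were within -0.17 and -0.08 in vehicle, and Kat5 was at 0.25. Ep300, which encodes p300, differed by -0.27 in vehicle (limma adjusted p = 0.219) and by -0.23 under IL-4 (limma adjusted p = 0.344). The latter was the lowest value of the class under IL-4. The Ep300 groups overlapped in vehicle, while under IL-4 every KO array lay below every control array. The other kept Ep300 probe gave -0.11 in vehicle and -0.01 under IL-4.

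Of the sirtuins other than Sirt3, Sirt4 differed by 0.27 in vehicle (limma adjusted p = 0.289) and 0.03 under IL-4. Sirt5 had the largest absolute value of the class in vehicle, -0.39 (limma adjusted p = 0.586). Sirt1, Sirt2 and Sirt7 lay between -0.07 and 0.07 in vehicle. Sirt6 was well above background on 6 of 13 arrays, did not pass the filter and was not tested.

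The 11 tested demethylases included no call, with log2 fold changes from -0.28 to 0.17 in vehicle and from -0.25 to 0.35 under IL-4. The largest absolute values were those of Kdm2a in vehicle, -0.28 (limma adjusted p = 0.649), and Kdm1a under IL-4, 0.35 (limma adjusted p = 0.335), the latter a flavin-dependent enzyme of the CoREST complex. On its brightest probe Kdm5b was higher on every KO array than on every control array of the same treatment, by 0.17 and 0.17, and was not called. Its other kept probe gave 0.01 in vehicle and -0.19 under IL-4. Kdm2b, Kdm3a, Kdm4a, Kdm4b, Kdm4c, Kdm5a, Kdm5c and Kdm6a lay between -0.27 and 0.16 in vehicle. Kdm6b was well above background on 4 of 13 arrays, on none of the control IL-4 arrays, and was not tested. Its log2 level ran from -5.21 to -3.20 over all arrays.

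The readers and scaffolds were the bromodomain proteins Brd2 and Brd3, the corepressor scaffold Sin3a and the CoREST subunit Rcor1. None was called, and Sin3a had the largest absolute value of the class in both comparisons, -0.28 in each (limma adjusted p = 0.373 and 0.372). The vehicle and IL-4 comparisons of genotype use different arrays. The sign was shared by 37 of 45 members, or 82.2%, against 63.9% of all genes, and the correlation of the log2 fold changes was 0.753 across members and 0.557 across all genes. These are descriptions across genes, which are not independent, and both comparisons share slides.

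**Figure D2:**
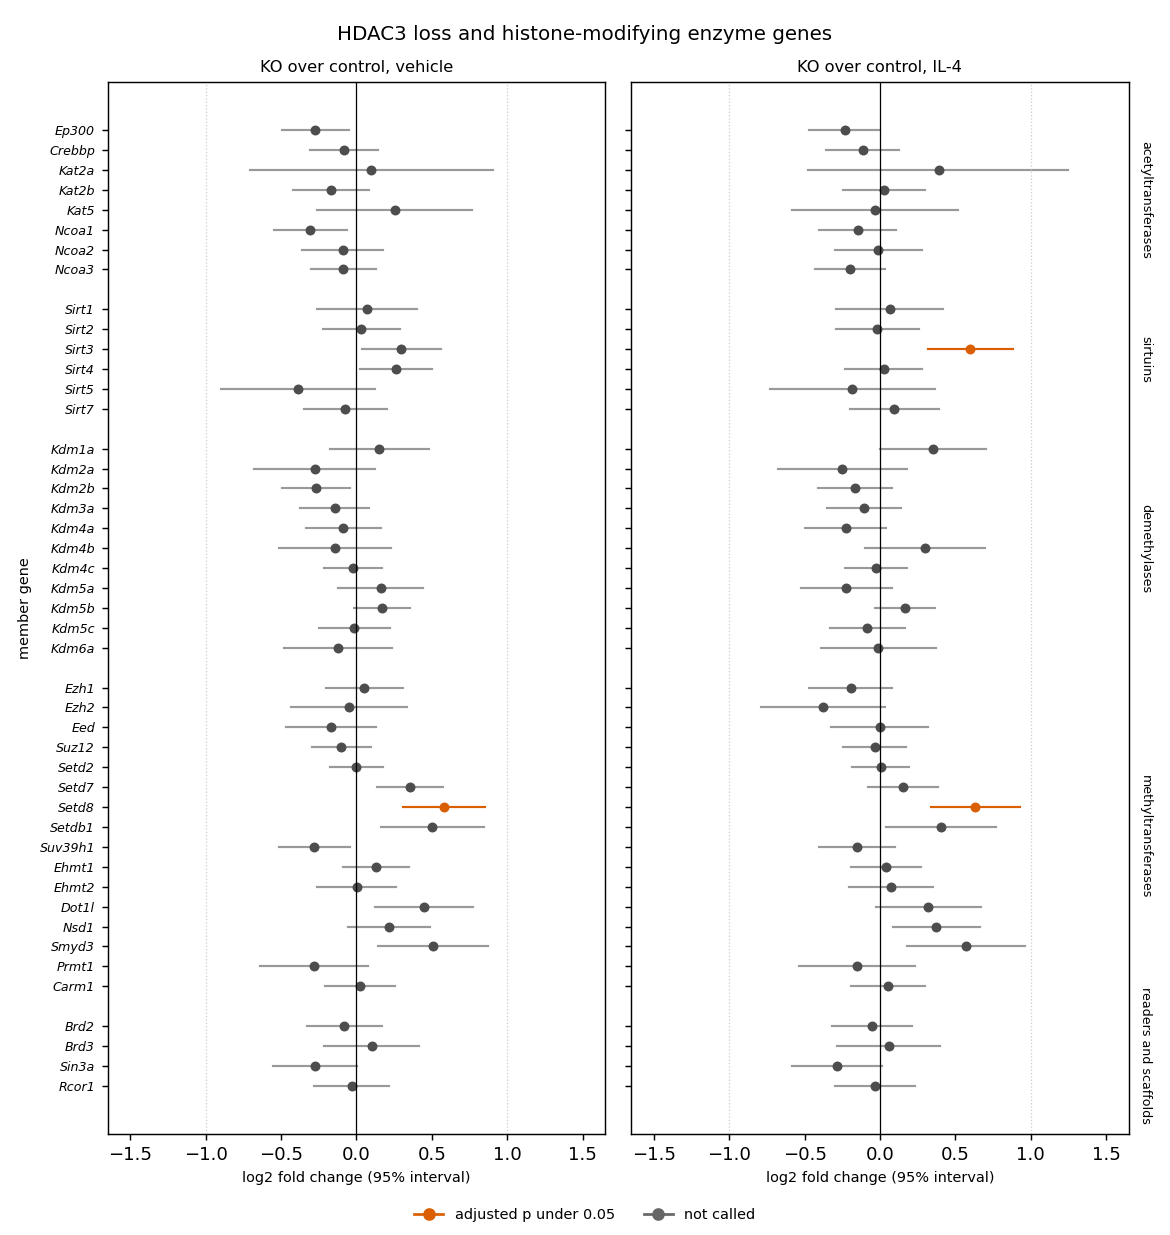
Log2 fold change of KO over control (x axis, with its 95% interval) for each of 45 tested members in vehicle and under IL-4, grouped by class; dotted lines mark a 2-fold change. Setd8 in both panels and Sirt3 under IL-4 are the called members. Of the intervals, 45 in vehicle and 44 under IL-4 lie inside a 2-fold change, against 85% and 80.6% of all genes.

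**Figure D3:**
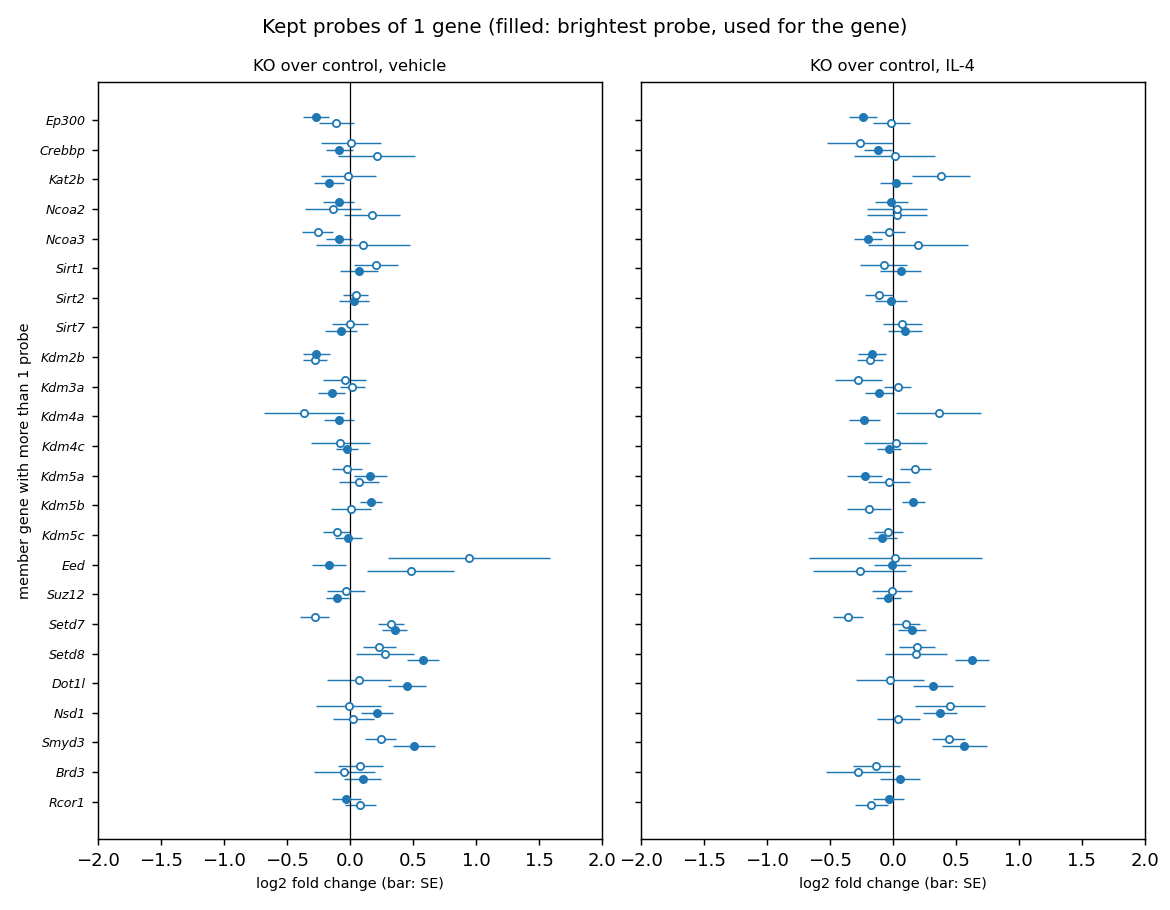
Log2 fold change of KO over control (x axis, bars are SE) for every kept probe of the 24 members with more than 1; filled points are the brightest probe, which stands for the gene. The 3 Setd8 probes share a sign with unequal sizes, and 1 Setd7 probe lies on the other side of 0. The brightest Eed probe maps to the strand opposite its other kept probes.

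More than 1 probe was kept for 24 members. Their probes differed in sign for 11 members in vehicle and 13 under IL-4 with HDAC3 loss, and for 10 and 11 members with IL-4 in control and KO cells. Eed is among the 24, and its brightest probe maps to the minus strand while its other kept probes map to the plus strand. Those probes may not read the same transcript. Eed is counted as differing in sign in every comparison except IL-4 in control cells.

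IL-4 in control cells gave 0 called members in limma, higher or lower, against 2.76% and 2.88% of all genes. At an unadjusted p under 0.05 there were 4 members, against 14.7% of all genes. Groups did not overlap for 2 higher and 8 lower members, against 16.7%. Ep300, the acetyltransferase p300, had the smallest adjusted p. It read 0.95, 0.90, 0.76 and 0.97 on control vehicle arrays and 0.47, 0.49 and 0.67 on control IL-4 arrays.

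The Ep300 groups did not overlap, with a log2 fold change of -0.35 (limma adjusted p = 0.0753). In KO cells its value with IL-4 was -0.32 (limma adjusted p = 0.219), from 0.82, 0.49 and 0.56 on vehicle arrays to 0.32, 0.30 and 0.31 on IL-4 arrays. A second Ep300 probe gave -0.18 in control and -0.08 in KO cells. Kat2b, an acetyltransferase of the PCAF type, differed by -0.34 in control cells (limma adjusted p = 0.145) and by -0.15 in KO cells. The other kept Kat2b probe gave -0.39 in control and 0.005 in KO cells.

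IL-4 in KO cells gave 0 called members in limma, against 1.16% of all genes called higher and 1.01% lower. There were 6 members at an unadjusted p under 0.05, against 12.4%, and groups did not overlap for 3 higher and 3 lower members, against 18.2%. Kdm4b, a demethylase of the JMJD2 family, read -2.49, -2.91 and -3.18 on KO vehicle arrays and -2.19, -2.06 and -2.25 on KO IL-4 arrays. The difference was 0.70 ± 0.18 (SE), or 1.62-fold, and was not called (limma adjusted p = 0.0832). In control cells it was 0.26 (limma adjusted p = 0.579).

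By class, the IL-4 differences in control cells ran from -0.35 to 0.35 in acetyltransferases, -0.20 to 0.20 in sirtuins, -0.28 to 0.26 in demethylases, -0.23 to 0.33 in methyltransferases and -0.19 to 0.07 in readers and scaffolds. In KO cells the ranges were -0.32 to 0.64, -0.23 to 0.30, -0.37 to 0.70, -0.30 to 0.39 and -0.19 to 0.10 in the same order. The members of largest absolute value in control cells were Ep300, Sirt1, Kdm2a, Setd8 and Sin3a. In KO cells they were Kat2a, Sirt7, Kdm4b, Setd8 and Sin3a. The Kat2a probe was well above background on 1 of 3 KO vehicle and 2 of 3 KO IL-4 arrays and passed the filter through the control IL-4 arrays alone, so its difference and its place in that order are uncertain.

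The interaction, which asks whether HDAC3 loss altered the IL-4 response, gave 0 called members in limma and 0 at an unadjusted p under 0.05. Over all genes 0.00479% were called and 3.88% had an unadjusted p under 0.05. The largest absolute value was that of Kdm4b, 0.44 with a 95% interval of -0.10 to 0.98. The interval lay inside a 2-fold change for 43 of 45 members, all but Kat2a and Kat5, against 70.4% of all genes.

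**Figure D4:**
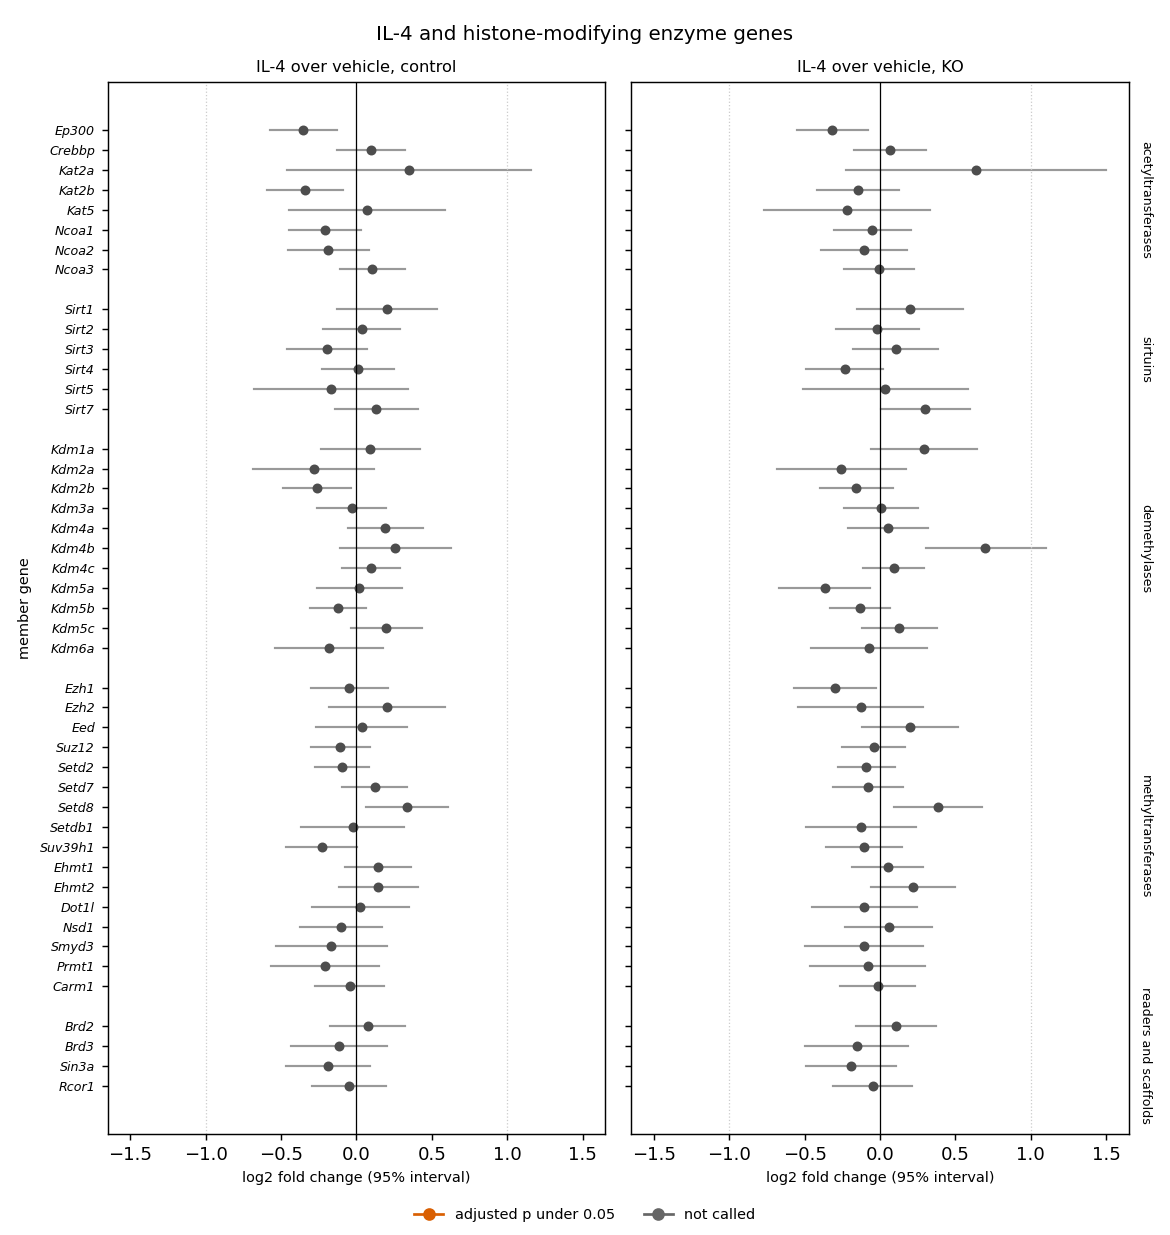
Log2 fold change of IL-4 over vehicle (x axis, with its 95% interval) for each of 45 tested members in control and KO cells, grouped by class; dotted lines mark a 2-fold change. No member was called in either panel, and Kdm4b in KO cells, at 0.70, has the highest value.

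The arrays bounded most differences on the brightest probe of each gene, and other probes were not bounded here. In vehicle the 95% interval of all 45 tested members lay inside a 2-fold change with HDAC3 loss, as against 85% of all genes. For 36 members it lay inside a 1.5-fold change, against 55.7% of all genes. Under IL-4 it lay inside 2-fold for 44 members (all but Kat2a), against 80.6% of all genes, and inside 1.5-fold for 32, against 47%. The 45 members tested include 40 whose probe was well above background on every array. The median SD of the members was 0.112 in control vehicle, 0.132 in KO vehicle, 0.133 in control IL-4 and 0.171 in KO IL-4 arrays.

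Other genes of the same pathways were taken from lists of related chromatin factors. Among 24 tested acetyltransferases and cofactors outside the members, 1 (4.17%) was higher and 1 lower with HDAC3 loss in each treatment, beside 2.42% and 2.25% of all genes in vehicle and 2.03% and 1.6% under IL-4. Ncoa4, a nuclear receptor coactivator that is also the cargo receptor for ferritin, was higher by 1.05 in vehicle and 1.07 under IL-4 (limma adjusted p = 0.000309 and 0.000574). Brpf3, a scaffold of acetyltransferase complexes, was lower by -0.66 and -0.53 (limma adjusted p = 0.00448 and 0.027).

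Of 30 tested Polycomb and COMPASS subunits, Epop (-0.82, limma adjusted p = 0.00703) and Bmi1 (-0.36, limma adjusted p = 0.0343) were lower with HDAC3 loss in vehicle, 6.67% beside 2.25% of all genes, and none was called under IL-4. Of 28 other methyltransferases, Suv39h2 was lower in vehicle by -0.60 (limma adjusted p = 0.0295). Of 29 tested SIN3, CoREST and NuRD subunits, Brms1l was lower in vehicle by -0.42 (limma adjusted p = 0.0337). None of 13 other demethylases or 28 other readers was called with HDAC3 loss. With IL-4 the reader Brwd1 was higher by 1.15 in control and 0.77 in KO cells (limma adjusted p = 3.64e-05 and 0.00232), 1 call of 28 in each. In control cells IL-4 also lowered 3 of 24 acetyltransferases and cofactors (Brpf3, Cited2 and Ncoa7, by -0.49, -0.55 and -0.33), 12.5% beside 2.88% of all genes, and 1 of 13 demethylases (Phf8, by -0.38). Of the 30 Polycomb and COMPASS subunits, Mtf2 was higher by 0.44 and Epop lower by -1.05 there. In KO cells Chd3 was lower by -0.48, the single call among 29 SIN3, CoREST and NuRD subunits.

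In bulk RNA, fewer cells of a type and less RNA per cell cannot be told apart. Of the eosinophil, mast cell and basophil markers 4 of 7 passed, and Mcpt8, Kit and Fcer1a did not. Their summed linear level ran from 38.2 to 43.7 on control vehicle arrays and from 20.3 to 23.6 on KO vehicle arrays. A linear sum is weighted to the brightest genes. The log2 fold change was positive for 2 of the 4, with a median of -0.08, and the single call was Ccr3, at -0.91. The lower sum therefore does not stand for all 4 markers. Under IL-4 the sum ran from 27.3 to 36.1 in control and from 22.9 to 25.3 in KO cells.

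Of the T and NK cell markers 4 of 8 passed, and Cd3d, Cd8a, Lck and Gzma did not. They summed to between 0.815 and 1.05 on control vehicle and between 0.995 and 1.23 on KO vehicle arrays. Klrb1c was called higher with HDAC3 loss, by 2.17 ± 0.394 (SE) in vehicle and 1.84 ± 0.422 (SE) under IL-4. Its own level lay below these low sums, so the size of its change is uncertain. Among 8 stromal and endothelial markers Kdr was lower by -1.136 and -1.004, and among 4 tested B cell markers Cd79b was lower in vehicle by -0.75. Of 26 tested cell cycle genes 1 was called in each treatment, Cdc6, higher by 0.95 and 1.13. Of 16 tested stress and RNA quality genes, with HDAC3 loss Egr1 was lower by -0.74 and -0.54, Ier3 higher by 0.99 in vehicle and Fos higher by 0.73 under IL-4. With IL-4 in control cells 4 of the 16 were higher, 25% beside 2.76% of all genes. They were Ier3 (2.15), Hspa1a (1.14), Gadd45b (1.06) and Atf3 (0.63). Fos (-0.89), Cdc6 (-0.75) and Kdr (-0.69) were lower there. In KO cells IL-4 raised Ier3 by 1.25, the single call among the 16. The part of these genes and cells in the values of Setd8 and Sirt3 was not tested.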

How the data were processed

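RNA of 13 macrophage samples was amplified with a NuGEN kit, labelled with Cy3 and hybridised to one-colour Agilent arrays, per the labels' protocols. The deposited scanner files hold linear spot intensity from Feature Extraction 10.5.1.1, per the file headers. The submitters' processing notes name version 9.53 of it, and limma. The deposited value table also holds linear intensity, and how the authors made it is not stated in the sources used.

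Control spots and outlier spots were dropped, and replicate spots averaged. Log2 intensity was taken relative to the array's 75th percentile over averaged probes. A probe was kept only if it still had a spot on every array. All arrays of 1 group or more also had to read it as well above background, and the brightest kept probe stood for its gene. One limma 3.58.1 model (R 4.3.3, lmFit, eBayes, two-sided) of the group means used all 13 arrays, with Benjamini-Hochberg adjustment over 20888 genes. A gene was called when its adjusted p was under 0.05. Scripts were tested on simulated data.

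The members and gene lists were chosen with earlier results of these data known. The 75th percentile was first taken over all non-control spots. It was changed to averaged probes after the fitted results, the members' calls included, had been seen, to follow an earlier description of how these files were processed. Both versions are given, and both call the same members. An older symbol that belongs to another gene was removed from the entry for Ncoa2 after the files had been read. Each of 4 pairwise comparisons was refitted under 27 alternatives and the interaction under 26. Of these, the percentile over spots and the fit without the 2 arrays with the fewest spots well above background were added after the data had been seen.

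All members are named. Those called in any comparison are given on every array, and the others by class as counts and ranges with the largest change. Up to 4 called genes of each chromatin list are named. Members that were not called and are still given on every array were picked after their values were seen.

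Between 56.2% and 83.2% of spots were well above background, and the number of arrays limits the precision. Whether a group's arrays stand for different mice or culture dishes is not in the labels. The spread behind each p-value is then that of these samples alone and may be technical. Each group occupied a single array position, and effects of position cannot be told apart from those of group.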

Additional observations from a re-analysis of the deposited data

Results flagged for a closer look

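Of 45 members checked on the 4 control vehicle arrays, 2 had an array that stood apart from the other 3, and chance alone sets about 1 in 20 such groups apart. Suz12 read 2.638 on control vehicle array 2, with the others between 2.867 and 2.906. Dot1l read 1.611 on control vehicle array 1, with the others between 1.393 and 1.425.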

How the results depend on the processing

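With HDAC3 loss in vehicle, 1 member was called, against 3 with quantile normalization, 0 with median scaling, 4 with normexp and quantile normalization, 2 with the authors' value table, 2 with probes well above background on every array, 0 with the mean over probes, 0 with slide as a fixed block, 2 with trend and robust variance and 5 with array weights. Under IL-4, 2 members were called, against 0 with median scaling, 1 without a filter on dim probes, 1 with slide as a fixed block, 0 with only the groups compared and 3 with array weights. Smyd3 was called there in 2 of 27 alternatives, those with array weights and with the mean over probes. In vehicle, members not called above were called in some alternatives. These were Setd7 in 5 of 27, Dot1l in 3 of 27, Ncoa1 and Smyd3 in 2 of 27 each, and Setdb1 in 2 of 26. For IL-4 in control cells, 0 became 1 with quantile normalization, 1 with normexp and quantile normalization, 1 with the authors' value table, 1 with probes well above background on every array and 2 with array weights. Ep300 was called in 4 of these 27 alternatives, and Setd8 and Sin3a in 1 each. Leaving out each array in turn gave 0 to 2 members for HDAC3 loss in vehicle, 0 to 2 under IL-4, 0 to 0 for IL-4 in control cells and 0 to 1 in KO cells, where Kdm4b was called without KO vehicle array 5. The interaction gave 0 under all 26 alternatives run. Without the 2 arrays with the fewest spots well above background, chosen after seeing the data, the counts were 0 in vehicle and 1 under IL-4. With the 75th percentile over all non-control spots, the version used first and kept as an alternative after the results had been seen, Setd8 gave 0.58 in vehicle (limma adjusted p = 0.0217) and 0.63 under IL-4 (limma adjusted p = 0.0238), and Sirt3 gave 0.59 under IL-4 (limma adjusted p = 0.0253). Setd8 was called in 19 of 27 alternatives in vehicle and in 19 of 27 under IL-4, and Sirt3 in 19 of 27 under IL-4, with the same sign in all of those run. The cause of the lost calls was not tested. The groups share no replicate number, so arrays could be matched by slide alone, and with slide as a fixed block both Setd8 calls were lost while that of Sirt3 was kept. The number of arrays, and signal over background for dim probes, limit what could be detected.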
